A study of Mus musculus with 13 samples.

Results

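Complement components and regulators were followed in S1 proximal tubule segments of male mice exposed to bacterial endotoxin. The set listed 6 genes: C3, Cfb, Cfi and C4b, which encode soluble proteins of the cascade, and Cd55 and Cd59a, which encode regulators held on cell membranes. A gene was included through each probe set whose single gene symbol was that gene. By this rule 5 of the 6 had a value, with 1 probe set each, among 22180 genes in all. The platform annotation used here named no probe set for C3, so C3 was not analysed here.

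The segments came from C57BL/6J mice, with 1 Affymetrix whole-transcript array per sample and 13 arrays in all. Control mice (4 arrays) received saline. The LPS group (4 arrays) received 5 mg/kg of lipopolysaccharide, serotype 0111:B4, into the peritoneum and was studied 24 h later. The LPS/LPS group (5 arrays) received 0.25 mg/kg and, 24 h after it, 5 mg/kg, a schedule called preconditioning; the labels give these doses also as 5 ug and 100 ug, and the time of study as 24 h after the larger one. No age is stated. Nothing in the labels ties an array to its own mouse, so the p-values reflect only how these arrays scatter, part of which may be technical.

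Complement is a cascade of plasma proteins that marks microbes and damaged cells for removal and can puncture their membranes. The classical route starts on antibody through C1, the lectin route starts on sugars, and both use C2 and C4. The alternative route feeds itself through C3 and factor B. Factor I cuts and inactivates C3b and C4b, CD55 takes apart the enzymes that cleave C3 and C5, and CD59 stops the final pore from forming. Liver cells make most of the plasma pool, and kidney tubule cells are also known to make several components, factor B and C3 among them.

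Values are log2 expression values after RMA, a method that reduces the probes for a gene to 1 number per array. A rough guide to background was the level below which 95% of 1105 olfactory receptor genes, mostly silent in kidney, had their mean, a log2 level of 4.77, called the background reference here; 9.95% of all genes had a mean at or above it. Of 12 markers of the S1 and S2 proximal tubule, 6 had a mean above it, among them the phosphate transporter gene Slc34a1 at 10.09, but the S1 glucose transporter gene Slc5a2 was at 4.27. One array stood apart. Over 9 markers of the loop of Henle, distal tubule and collecting duct, LPS replicate 3 had a mean level of 5.60. The other 12 arrays ran from 3.89 to 4.23. It was also highest over 9 markers of fibroblasts and mural cells, at 4.70 against 3.99 to 4.42. Of these, Dcn was at 6.64 on it, against 3.02 to 3.58 on the other 12 arrays. Several results are also given without LPS replicate 3. In bulk segments, fewer cells of a type and less RNA per cell cannot be told apart.

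Among the 5 measured genes, Cfb was the only member whose mean level over all arrays (4.92) lay above the background reference. The means of C4b (4.32), Cfi (4.04), Cd59a (3.18) and Cd55 (2.73) lay below it, so sizes of change for these 4 are uncertain. The Cfb mean over all arrays lay above it only with the LPS arrays included. Over the 9 control and LPS/LPS arrays together the Cfb mean was 4.57. By group it was 4.86 in control, just above the reference, and 4.35 in LPS/LPS. Sizes of change for Cfb are therefore uncertain too. Probe sets differ in brightness, so the means say only how far each probe set lay from this reference and give no order of transcript amounts between genes.

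**Figure D1:**
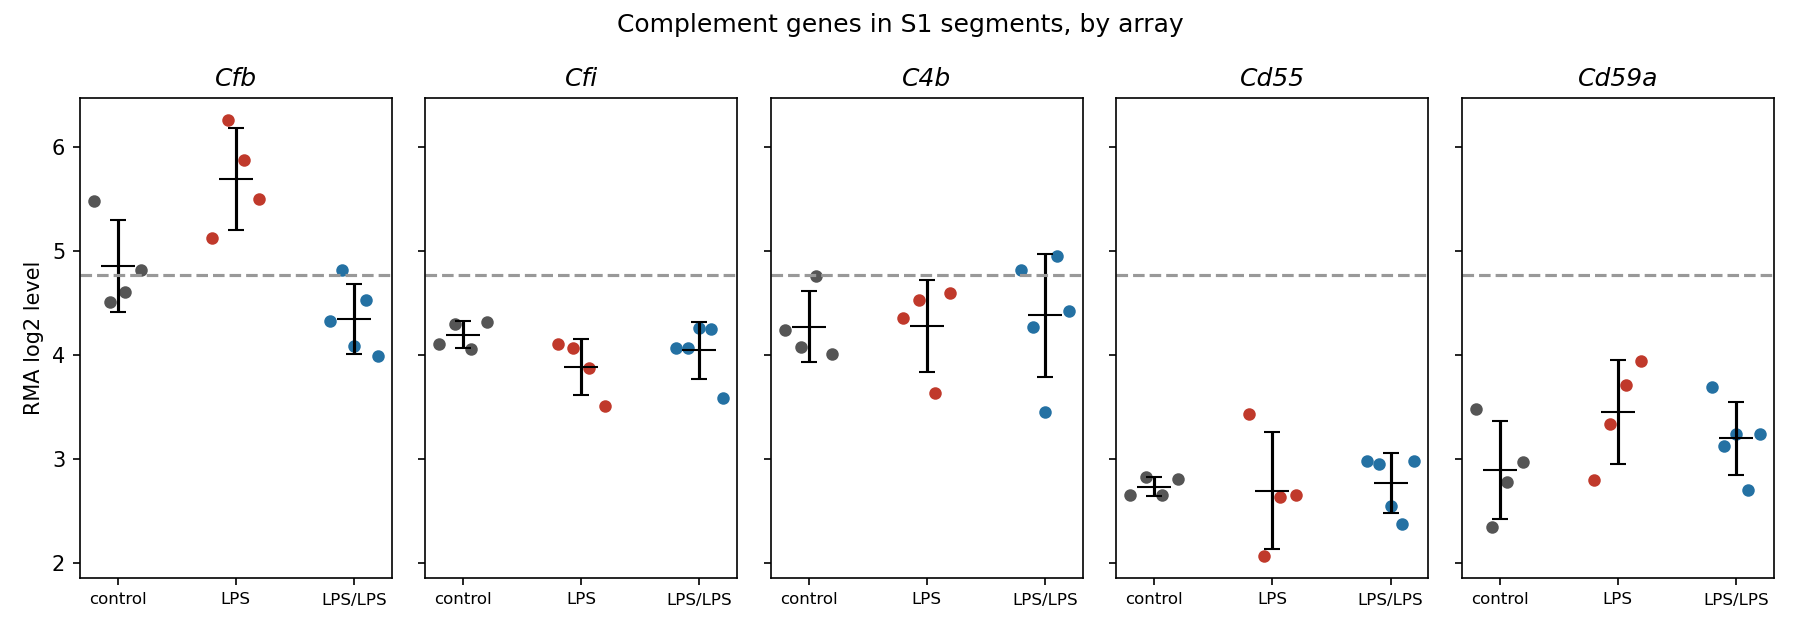
RMA log2 level of each measured complement gene (vertical axis) in control, LPS and LPS/LPS arrays; each point is 1 array, the horizontal mark is the group mean, bars are the SD, and the dashed line is the background reference of 4.77. Cfb is the gene whose 4 LPS arrays all lie above the line and above the 5 LPS/LPS arrays.

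Cfb encodes complement factor B, the serine protease precursor that joins C3b to form the alternative route's C3-cleaving enzyme. Its log2 levels were 5.49, 4.51, 4.61 and 4.82 in control replicates 1 to 4. In LPS replicates 1 to 4 they were 5.12, 6.27, 5.88 and 5.50. In LPS/LPS replicates 1 to 5 they were 4.33, 4.81, 4.09, 4.53 and 3.99. The 4 LPS arrays all lay above the 5 LPS/LPS arrays, while control replicate 1 lay within the LPS range. LPS replicate 1 and LPS/LPS replicates 2 and 4 lay within the control range. All 4 LPS arrays exceeded the background reference, against 2 of 4 control arrays and 1 of 5 LPS/LPS arrays.

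The effect of 1 unprepared endotoxin challenge was read from LPS against control. Cfb had a mean of 5.69 ± 0.49 (SD, n = 4) in LPS and 4.86 ± 0.44 (SD, n = 4) in control. The log2 difference was 0.84 (SE 0.27, 95% confidence interval 0.26 to 1.41), or 1.78-fold on the linear scale, and it did not pass the threshold over all genes (limma adjusted p = 0.59, unadjusted p = 0.00768). It ranged from 0.64 without LPS replicate 2 to 1.05 without control replicate 1, and was 0.77 without LPS replicate 3.

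The comparison of LPS/LPS with LPS set preconditioned beside unprepared mice after the same challenge. No group received the smaller dose alone, so its own effect and an altered response to the challenge cannot be told apart. Cfb had a mean of 4.35 ± 0.34 (SD, n = 5) in LPS/LPS, so the difference from LPS was -1.34 (SE 0.26, 95% confidence interval -1.89 to -0.80), or 2.54-fold. It ranked 28 by p among 22180 genes but missed the threshold of 0.05 (limma adjusted p = 0.0919). The adjusted p was 0.0245 without LPS replicate 1, where the difference was -1.53. Array weights down-weight arrays that deviate. The largest weight was that of LPS replicate 2 (2.18), which held the highest Cfb value. LPS replicate 1, with the lowest Cfb value of the LPS group, had a weight of 0.74. With these weights the difference was -1.50 and the adjusted p was 0.0359. Over the settings run it ranged up to 0.883, and without LPS replicate 3 the difference was -1.28 (adjusted p = 0.242).

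LPS/LPS and control did not separate for Cfb. The difference was -0.51 (SE 0.26, 95% confidence interval -1.05 to 0.04, limma adjusted p = 0.987), and it was -0.30 without control replicate 1, the highest control array. A test of any difference among the 3 groups gave Cfb an adjusted p of 0.184 (limma F-test). The comparisons of LPS with control and of LPS/LPS with LPS use the same 4 LPS arrays, so their opposite signs for Cfb are not independent of each other.

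**Figure D2:**
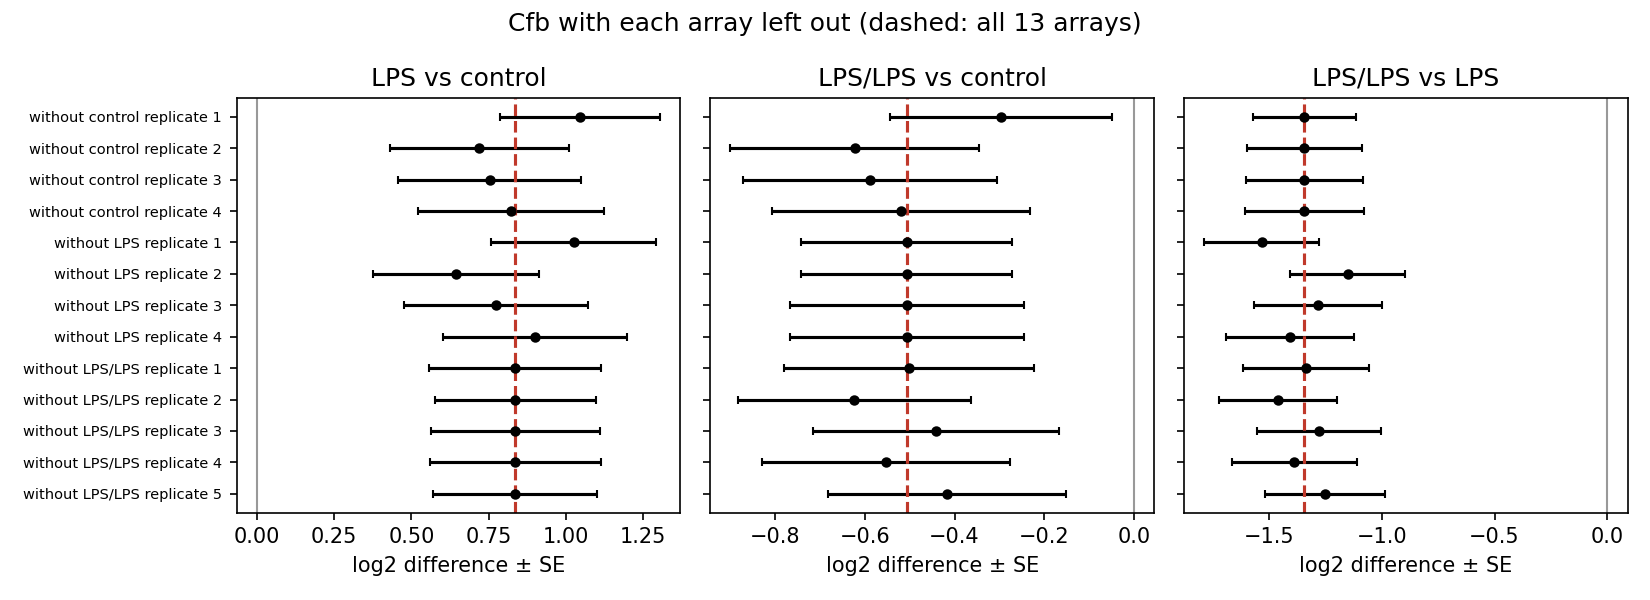
Log2 difference of Cfb with its standard error (horizontal axis) when each of the 13 arrays is left out in turn, for the 3 comparisons; the dashed line is the value with all arrays. The difference stays between 0.64 and 1.05 for LPS vs control and between -1.53 and -1.15 for LPS/LPS vs LPS.

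Arrays also differed in the spread of their log2 values, and 7 were wide and 6 narrow when split at the median SD of 1.35. The wide class held 2 control, 3 LPS and 2 LPS/LPS arrays, which leaves only 1 LPS array in the narrow class. The Cfb difference of LPS/LPS from LPS was -1.72 in the wide class and -0.65 in the narrow one. For LPS vs control these values were 0.73 and 0.56. For LPS/LPS vs control they were -0.996 and -0.08, and 0 of these within-class differences passed the threshold.

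Marker lists of cell types and segments are set beside Cfb here, and limma called 0 of their genes in each comparison. All 12 S1 and S2 markers had a negative difference in LPS/LPS vs LPS, with a median of -0.58 against a median of 0.05 over all genes tested. All 12 were also negative in LPS/LPS vs control, with a median of -0.53 against 0.03 over all genes. The mean level of this list ran from 5.04 to 5.71 in control, from 4.66 to 6.09 in LPS and from 4.45 to 5.08 in LPS/LPS. Of 14 macrophage and monocyte markers 1, Cx3cr1, had a mean above the background reference, and the mean level of the list ran from 3.83 to 3.89 in control, from 3.90 to 4.05 in LPS and from 3.92 to 4.10 in LPS/LPS. Of 7 endothelial markers 1, Egfl7, was above the reference, and the list ran from 3.93 to 4.12 in control, from 4.09 to 4.50 in LPS and from 4.08 to 4.22 in LPS/LPS. Of 10 hepatocyte markers 4, Alb, Apoa2, Ttr and Ahsg, were above it, and the list ran from 4.41 to 4.60 in control, from 4.03 to 4.50 in LPS and from 4.16 to 4.70 in LPS/LPS. LPS replicate 3 held the highest LPS value of the S1 and S2, the macrophage and the endothelial list. On the other LPS arrays the highest values of these lists were 5.66, 3.92 and 4.35. The S1 and S2 median of -0.58 includes LPS replicate 3. The part of any of the listed cells in the Cfb values was not tested.

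Cfi encodes factor I, the protease that inactivates C3b and C4b. Its log2 levels were 4.11, 4.30, 4.06 and 4.31 in control replicates 1 to 4. They were 4.10, 4.07, 3.88 and 3.51 in LPS replicates 1 to 4, and 4.07, 4.07, 4.26, 4.25 and 3.58 in LPS/LPS replicates 1 to 5. The groups overlapped, and the lowest arrays were LPS replicate 4 and LPS/LPS replicate 5. The difference was -0.31 (SE 0.17, limma adjusted p = 0.789) for LPS vs control, -0.15 (SE 0.17, adjusted p = 0.987) for LPS/LPS vs control and 0.16 (SE 0.17, adjusted p = 0.826) for LPS/LPS vs LPS. Without LPS replicate 4 the first was -0.18 and the last 0.03. Without LPS/LPS replicate 5 the difference from control was -0.03 and that from LPS 0.27.

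C4b encodes the C4 protein of the classical and lectin routes. Its levels were 4.24, 4.08, 4.76 and 4.01 in control replicates 1 to 4, and 4.35, 4.53, 3.63 and 4.60 in LPS replicates 1 to 4. They were 4.82, 4.27, 3.45, 4.95 and 4.42 in LPS/LPS replicates 1 to 5, the widest scatter of the 3 groups. The 3 group means lay between 4.27 and 4.38, and the ranges overlapped. Differences were 0.01 (SE 0.31, limma adjusted p = 0.997) for LPS vs control, 0.11 (SE 0.29, adjusted p = 0.991) for LPS/LPS vs control and 0.10 (SE 0.29, adjusted p = 0.945) for LPS/LPS vs LPS. Without LPS replicate 3 they were 0.22 for LPS vs control and -0.11 for LPS/LPS vs LPS, and without LPS/LPS replicate 3 they were 0.34 for LPS/LPS vs control and 0.34 for LPS/LPS vs LPS. The 95% confidence interval for LPS vs control ran from -0.65 to 0.66, so changes of moderate size in either direction were not detectable with these arrays. C4b and C4a are close copies, and signal between their probe sets could be shared.

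Cd55 encodes decay-accelerating factor, which dissociates the C3- and C5-cleaving enzymes on the cell's own surface. Mice carry a neighbouring copy, Cd55b, next to Cd55 on chromosome 1, and the stretches before both starts are shown so that the copies can be compared. These bases are not transcribed and say nothing on how far probe signal is shared. The 100 bases before each annotated start, from RefSeq on GRCm38.p6, lie on the minus strand at chr1:130462745-130462844 for Cd55 and chr1:130423044-130423143 for Cd55b. Both are promoter sequence before the first exon. Capitals mark the longest run, 14 bases, that these stretches share.
Cd55: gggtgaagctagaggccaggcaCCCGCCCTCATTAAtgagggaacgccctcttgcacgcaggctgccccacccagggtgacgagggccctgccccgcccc
Cd55b: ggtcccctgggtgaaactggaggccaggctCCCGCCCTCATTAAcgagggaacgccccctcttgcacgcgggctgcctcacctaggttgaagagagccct
Over 250 bases before the start, 63.7% of alignment columns were identical between Cd55 and Cd55b, against 49.8% between Cd59a and its own neighbouring copy Cd59b. Over the 100 bases nearest the start these shares were 72.7% and 43.9%. The share between unrelated sequences was not computed, so neither pair has a baseline.

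Cd55 levels were 2.65, 2.82, 2.65 and 2.80 in control replicates 1 to 4. In LPS replicates 1 to 4 they were 3.43, 2.06, 2.63 and 2.65, which hold both the highest and the lowest of all 13 arrays. In LPS/LPS replicates 1 to 5 they were 2.98, 2.95, 2.54, 2.38 and 2.98. No array came near the background reference of 4.77. Differences were -0.04 (SE 0.24, limma adjusted p = 0.981) for LPS vs control, 0.03 (SE 0.22, adjusted p = 0.993) for LPS/LPS vs control and 0.07 (SE 0.22, adjusted p = 0.951) for LPS/LPS vs LPS. LPS vs control was -0.28 without LPS replicate 1 and 0.17 without LPS replicate 2. The SD was 0.09 in control against 0.56 in LPS and 0.29 in LPS/LPS.

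Cd59a encodes the main CD59 protein of mouse tissues, which blocks assembly of the membrane attack complex. Its levels were 3.48, 2.35, 2.78 and 2.97 in control replicates 1 to 4, and 2.80, 3.33, 3.71 and 3.95 in LPS replicates 1 to 4. They were 3.69, 3.12, 3.24, 2.70 and 3.24 in LPS/LPS replicates 1 to 5. The groups overlapped in each comparison. The difference was 0.55 (SE 0.28, limma adjusted p = 0.772) for LPS vs control, with a 95% confidence interval from -0.04 to 1.15, and 0.47 without LPS replicate 3. It was 0.30 (SE 0.26, adjusted p = 0.987) for LPS/LPS vs control, but 0.12 without control replicate 2 and 0.50 without control replicate 1. For LPS/LPS vs LPS it was -0.25 (SE 0.26, adjusted p = 0.827), but -0.08 without LPS replicate 4, -0.16 without LPS replicate 3 and -0.47 without LPS replicate 1.

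**Figure D3:**
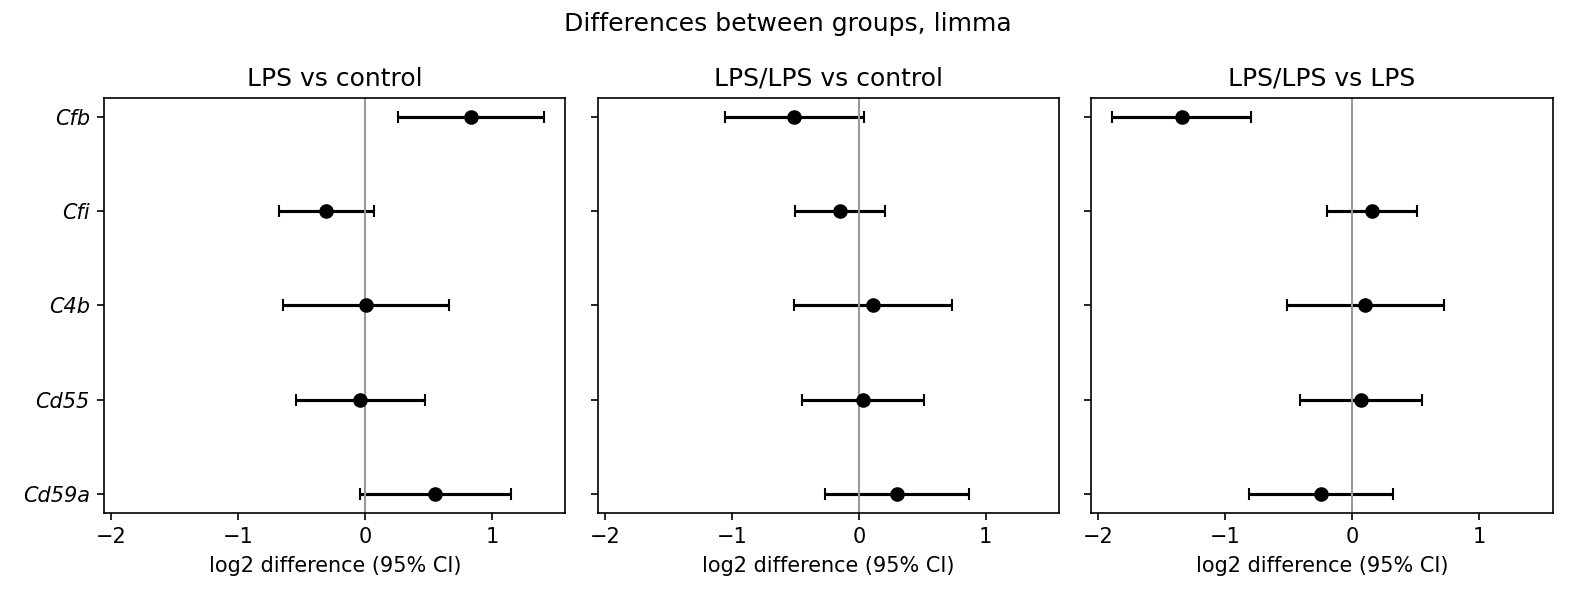
Log2 difference between groups with limma's 95% confidence interval (horizontal axis) for the 5 measured complement genes in each comparison; the vertical line is no difference. The Cfb interval lies above 0 in LPS vs control (0.26 to 1.41) and below 0 in LPS/LPS vs LPS (-1.89 to -0.80), before any adjustment over genes.

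Counted over the set, limma called 0 of the 5 genes in LPS vs control at an adjusted p under 0.05, where 0% of all genes were called. In LPS/LPS vs control it called 0 of 5, where 0.00902% of all genes were called. In LPS/LPS vs LPS it called 0 of 5, where 0.0631% were called, and the F-test over the 3 groups called 0 of 5, where 0.0631% were called. At an unadjusted p under 0.05 there was 1 of 5 in LPS vs control (Cfb, against 6.43% of all genes), 0 of 5 in LPS/LPS vs control (4.7%) and 1 of 5 in LPS/LPS vs LPS (Cfb, against 8.61%). Groups did not overlap for 0 of 5 genes in LPS vs control (3.15% of all genes), 0 of 5 in LPS/LPS vs control (1.54%) and 1 of 5 in LPS/LPS vs LPS, again Cfb (2.4%). The median difference of the 5 genes was 0.01, 0.03 and 0.07 in these 3 comparisons, beside -0.02, 0.03 and 0.05 over all genes.

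The wider cascade was read from 55 further complement genes, of which 48 were measured and 3, C1ra, Susd4 and Fcna, had a mean above the background reference. In LPS vs control 14 of the 48 had a positive difference, with a median of -0.08, while 47.1% of all genes were positive. In LPS/LPS vs control 28 were positive (median 0.04, 55.8% of all genes), and in LPS/LPS vs LPS 34 were positive (median 0.10, 59.3% of all genes). limma called 0 of the 48 in each comparison. At an unadjusted p under 0.05 there were 3 in LPS vs control, C2, Serping1 and the mannose-binding lectin gene Mbl2 (-0.43, SE 0.19), a share of 48 to be read against 6.43% of all genes. There were 0 in LPS/LPS vs control, against 4.7% of all genes. There were 4 in LPS/LPS vs LPS: C2, Serping1, Itgax and the ficolin gene Fcnb (0.39, SE 0.18), against 8.61% of all genes. Shares this near the background are no result about the list. Mbl2 and Fcnb were picked after their values were seen.

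Among 16 genes that start the classical and lectin routes, the brightest probe sets were those of the C1r protease gene C1ra (mean 5.01) and the ficolin gene Fcna (4.78). C1ra differed by 0.22 (SE 0.25) in LPS vs control and -0.10 (SE 0.23) in LPS/LPS vs LPS (0.41 and -0.29 without LPS replicate 3), and Fcna by -0.08 (SE 0.24) and 0.16 (SE 0.23), and the sign of each but the first turned on leaving out 1 array. The lowest p in both comparisons belonged to C2, the protease of the classical and lectin C3-cleaving enzyme. C2 had levels of 2.88, 3.35, 3.28 and 3.27 in control, 3.35, 4.04, 3.54 and 3.93 in LPS, and 3.60, 3.04, 3.30, 2.92 and 3.45 in LPS/LPS, each in replicate order. All lay below the background reference, and control and LPS touched at 3.35. The C2 difference was 0.52 (SE 0.19, limma adjusted p = 0.687) in LPS vs control and -0.45 (SE 0.18, adjusted p = 0.499) in LPS/LPS vs LPS. In LPS/LPS vs control the lowest p was that of the lectin route protease gene Masp1, at 0.20 (SE 0.12, adjusted p = 0.987).

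Soluble regulators held Serping1, which encodes the C1 inhibitor, and Clu, which encodes clusterin, a chaperone that also binds the terminal complex. Serping1 was at 3.38, 3.43, 4.59 and 3.97 in LPS replicates 1 to 4, against 3.23 to 3.38 in control and 2.93 to 3.57 in LPS/LPS. Its difference was 0.52 (SE 0.24, limma adjusted p = 0.763) in LPS vs control and -0.63 (SE 0.22, adjusted p = 0.449) in LPS/LPS vs LPS. Without LPS replicate 3, which held its highest value, these were 0.27 and -0.38. Clu (mean 4.63) was also highest on that array, at 5.84, and differed by 0.46 (SE 0.25, adjusted p = 0.781) in LPS vs control, but by 0.16 without that array. Vtn, which encodes vitronectin and had the brightest probe set of the list (mean 4.73), differed by -0.17 (SE 0.20) in LPS vs control and by -0.0067 without LPS replicate 3. Cpn1, a subunit gene of the carboxypeptidase that trims the anaphylatoxins, differed by -0.50 (SE 0.36, adjusted p = 0.987) in LPS/LPS vs control and by -0.04 without control replicate 1.

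The terminal components, which build the membrane pore, held 7 measured genes, 0 of them above the background reference. The brightest probe sets were those of C8b (mean 4.29) and C8a (4.02). The lowest p belonged to C7 in LPS vs control (0.29, SE 0.17, limma adjusted p = 0.805), to C6 in LPS/LPS vs control (0.28, SE 0.21, adjusted p = 0.987) and to C8a in LPS/LPS vs LPS (0.27, SE 0.14, adjusted p = 0.631). C7 was 0.15 without LPS replicate 1, and C6 was 0.08 without control replicate 2 and 0.42 without control replicate 4. Properdin, encoded by Cfp, stabilises the alternative route's enzyme. Cfp differed by -0.04 (SE 0.16) in LPS vs control. Against control, LPS/LPS differed by 0.20 (SE 0.15), and by 0.08 without control replicate 3. Against LPS it differed by 0.24 (SE 0.15), and by 0.16 without LPS/LPS replicate 4.

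The other membrane regulators numbered 7. Susd4, a gene for a sushi domain protein that restrains complement, had the brightest probe set (mean 5.08) and differed by -0.36 (SE 0.18, limma adjusted p = 0.771) in LPS vs control. Thbd, the thrombomodulin gene (4.18), differed by -0.07 (SE 0.23) there and by 0.06 without LPS replicate 1. Cd46, which encodes a cofactor of factor I, differed by 0.30 (SE 0.16, adjusted p = 0.987) in LPS/LPS vs control, and by 0.19 without LPS/LPS replicate 5. Cd59b differed by 0.54 (SE 0.28, adjusted p = 0.614) in LPS/LPS vs LPS, and by 0.25 without LPS/LPS replicate 1.

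Receptors for complement fragments numbered 10, and 0 had a mean above the background reference. The brightest probe sets were those of the integrin beta chain gene Itgb2 (mean 4.39) and the C5a receptor gene C5ar2 (4.35). Itgax, the alpha chain gene of complement receptor 4, differed by -0.31 (SE 0.14, limma adjusted p = 0.768) in LPS vs control. Without LPS replicate 1 this was -0.18. In LPS/LPS vs LPS, Itgax differed by 0.37 (SE 0.14, adjusted p = 0.46), and the groups did not overlap. Lack of overlap there was found for 1 of the 48 further complement genes, against 2.4% of all genes. A share this near the background is no result about the list. Itgb2 differed by 0.26 (SE 0.15, adjusted p = 0.987) in LPS/LPS vs control, and by 0.14 without LPS/LPS replicate 2.

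**Figure D4:**
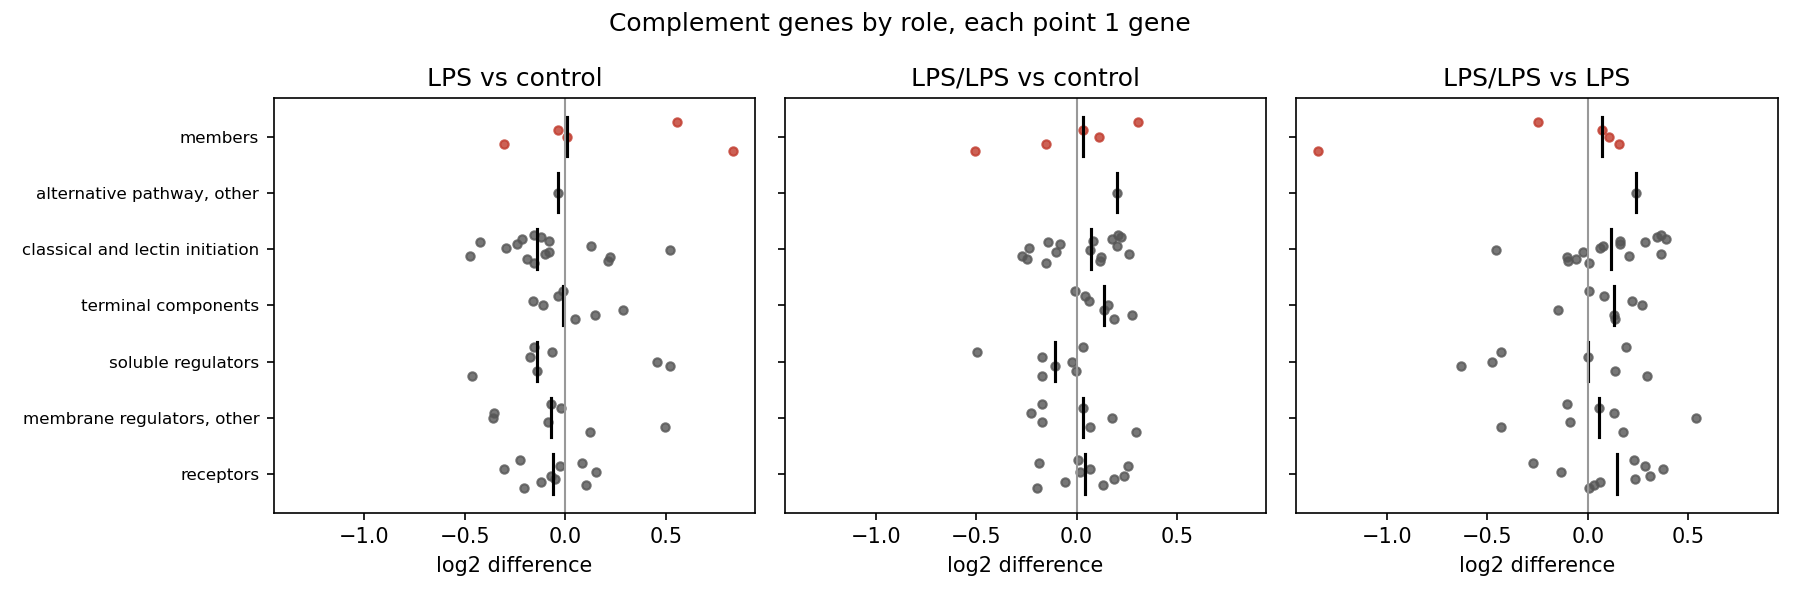
Log2 difference (horizontal axis) of each measured complement gene, 1 point per gene, by role and comparison; red points are the 5 genes of the set and black marks are medians. The point farthest from 0 in the LPS/LPS vs LPS panel is Cfb at -1.34.

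A short list of 11 genes that control complement transcription or receive the cytokines that drive it had 9 measured members. limma called 0 of the 9 in each comparison. In LPS/LPS vs control the differences ran from -0.17 to 0.37, with 5 of 9 positive (55.8% of all genes). There 0 of the 9 had an unadjusted limma p under 0.05 (4.7% of all genes). Differences ran from -0.03 to 0.87 in LPS vs control, with 8 of 9 positive (47.1% of all genes) and 3 at an unadjusted p under 0.05 (6.43%). They ran from -0.50 to 0.22 in LPS/LPS vs LPS, with 1 of 9 positive (59.3% of all genes) and 3 at an unadjusted p under 0.05 (8.61%). In both it was the transcription factor genes Stat3 (0.87 and -0.50), Rela (0.58 and -0.45) and Irf8 (0.37 and -0.39), picked after their values were seen, and the same 4 LPS arrays enter both. Without LPS replicate 4, Stat3 was -0.33 in LPS/LPS vs LPS. The mean level of Stat3 (5.11) lay above the background reference. Those of Rela (4.07) and Irf8 (4.14) lay below it, so their sizes of change are uncertain. Irf8 had 2 single-symbol probe sets, and only the one with the higher mean is given.

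Members with a close copy or an adjacent complement gene were set against it over the 13 arrays. Cfb and C2 are adjacent genes on chromosome 17, and their levels had a Pearson r of 0.42 (permutation p = 0.152, adjusted over 4 pairs 0.608) and a Spearman rho of 0.21 (permutation p = 0.483, adjusted 0.92). Without LPS replicates 2 and 3, the arrays farthest from the Cfb median, r was 0.00, and in the wide and narrow classes it was 0.32 and 0.00. Pearson r was -0.08 for C4b and C4a, -0.06 for Cd55 and Cd55b, and 0.02 for Cd59a and Cd59b (permutation p = 0.784, 0.838 and 0.939, adjusted 0.939 each), and rho was -0.03, -0.05 and -0.27 (permutation p = 0.92, 0.877 and 0.374, adjusted 0.92 each).

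Genes whose levels followed a member most closely over the 13 arrays were taken among genes at or above the background reference, as a description with no test, since the highest of many values is large by selection. For Cfb they were Mif, a cytokine gene (r = 0.91, rho = 0.77), Grina (r = 0.899, rho = 0.82) and Fkbp2, a gene for an endoplasmic reticulum prolyl isomerase (r = 0.87, rho = 0.88), out of 1754 genes. Without LPS replicates 2 and 3 these r were 0.82, 0.86 and 0.91. For Cfi they were Col16a1 (r = 0.92), Fabp1 (0.898) and Tmem191c (0.85), which were 0.67, 0.60 and 0.45 without LPS replicate 4 and LPS/LPS replicate 5. For C4b they were Zfhx3 (0.81), Astn2 (0.79) and Rab9b (0.76), which were 0.65, 0.57 and 0.19 without LPS replicate 3 and LPS/LPS replicate 3. For Cd55 they were Glis1 (0.81), Imp4 (0.75) and Ccl9 (0.69), which were 0.63, 0.11 and 0.82 without LPS replicates 1 and 2. For Cd59a they were Ezh1 (0.86), Crot (0.76) and Rpl29 (0.75), which were 0.77, 0.77 and 0.58 without control replicate 2 and LPS replicate 4.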

How the data were processed

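Log2 values of 13 arrays, 1 per probe set, were used as the authors deposited them, and the submitters' processing notes name RMA and Partek 6.6. Per the labels' protocols, 2 ng of total RNA per sample was labelled with the Affymetrix WT Pico kit. For the background step, the scaling between arrays and the genome build, the sources used here give nothing. Detection calls were not used here, and precision is limited by the number of arrays.

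Of 41345 probe sets, 23521 had 1 gene symbol in the platform annotation, 1814 had several and 16010 had none. For genes with several probe sets the one with the highest mean was used (22180 genes). The 3 groups were fitted together without covariates (limma 3.58.1 in R 4.3.3, lmFit then eBayes). Benjamini-Hochberg adjustment ran over all genes, with a threshold of 0.05. The fit was tested on simulated data.

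Replicate numbers did not pair the arrays by the rule used, so the fit with a replicate block is an alternative. Other alternatives varied the probe sets, dim genes, scaling, arrays and moderation. Named besides the members were, per list, the 2 genes with the highest means and the lowest p in each comparison; for likeness, the 3 genes with the highest r per member, without predicted genes, small RNAs and sensory receptors. The members and lists were chosen with earlier results of these data known.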

Additional observations from a re-analysis of the deposited data

Results flagged for a closer look

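Groups of 4 or 5 arrays numbered 75 (25 genes in 3 groups). In 8 of them an array's distance from the nearest other array was large for the group's range. Chance marks about 1 group in 20 where values are not tied. Identical values recur here, also in flagged groups, so this rate may not apply and nothing is read from the count. LPS/LPS replicate 5 was low for Cfi (log2 level 3.581, the others 4.065 to 4.262) and for Vtn (4.227, the others 4.747 to 4.821). LPS/LPS replicate 4 was high for Cfp (4.666, the others 4.229 to 4.329), LPS/LPS replicate 2 for Masp1 (4.234, the others 3.863 to 3.951) and LPS/LPS replicate 3 for C7 (4.184, the others 3.528 to 3.684). LPS/LPS replicate 1 was high for Cd59b (5.228, the others 3.527 to 4.01), and control replicate 1 was high for Cpn1 (5.639, the others 3.699 to 3.908). LPS replicate 4 was low for C8b (3.877), while the other 3 LPS arrays all held 4.247.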

How the results depend on the processing

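Cfb kept its direction in all 3 comparisons under every alternative run, and in LPS/LPS vs LPS it passed the threshold without LPS replicate 1 and with array weights. It also did among genes at or above the background reference, but its mean over the 9 control and LPS/LPS arrays was 4.57, so it met that filter only through its LPS arrays and nothing is read from it. The other 4 members passed in 0 comparisons under any alternative run. Over all genes, limma called 0 in LPS vs control, 2 in LPS/LPS vs control, 14 in LPS/LPS vs LPS and 14 by the F-test, and these counts moved with the setting. In that order they were 0, 1, 21 and 22 over all single-symbol probe sets, 0, 0, 7 and 0 over all probe sets, 3, 2, 16 and 10 over genes at or above the background reference, and 5, 4, 9 and 7 after quantile normalization. They were 0, 1, 18 and 14 with median centring, 10, 6, 22 and 25 with SD scaling too, 30, 3, 41 and 41 with array weights, and 7, 2, 14 and 17 with trend and robust moderation. With the spread class as a block they were 0, 4, 20 and 11, within wide arrays 0, 0, 0 and 0, and within narrow arrays 1, 0, 3 and 1. Fits of only the 2 groups compared called 0, 0 and 2. Leaving out 1 array gave 0 to 24, 0 to 3, 5 to 96 and 1 to 39, and 24, 96 and 39 are the counts without LPS replicate 1.

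Replicate numbers are shared across groups, but only 3 of 12 same-numbered pairs of arrays had deviations from the group means that correlated above 0.1 (range -0.35 to 0.22), so they were not taken as pairs. With the replicate block, in which LPS/LPS replicate 5 has no partner and drops out, the counts were 3, 0, 4 and 2, and Cfb in LPS/LPS vs LPS differed by -1.25 (adjusted p = 0.399).

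Signs turned for the differences below, none of them past the threshold, and the cause was not tested. In LPS vs control, C4b was -0.0014 after quantile normalization, -0.00099 with SD scaling, -0.0020 with the spread block and -0.069 within narrow arrays, and it ran from -0.099 to 0.22 on leaving out 1 array. C4b in LPS/LPS vs control was -0.20 within narrow arrays and ran from -0.031 to 0.34, and in LPS/LPS vs LPS it was -0.049 with array weights and -0.13 within narrow arrays and ran from -0.11 to 0.34. Cd55 in LPS vs control was 0.014 after quantile normalization, 0.020 with SD scaling and 0.69 within narrow arrays, and ran from -0.28 to 0.17. Cd55 in LPS/LPS vs control was -0.0017 with SD scaling, -0.019 with the replicate block and -0.11 within narrow arrays, and ran from -0.020 to 0.13. In LPS/LPS vs LPS it was -0.0091, -0.022 and -0.80 after quantile normalization, with SD scaling and within narrow arrays, and ran from -0.14 to 0.32. Within narrow arrays the sign also turned for Cfi (0.015) and Cpn1 (0.061) in LPS/LPS vs control, for Cd59a (0.22) and Cd59b (-0.046) in LPS/LPS vs LPS, and for Cfp in LPS vs control (0.088, and -0.16 to 0.056 on leaving out 1 array). Cfp in LPS/LPS vs control was -0.045 within wide arrays. Fcna in LPS vs control was 0.10 with array weights and 0.13 within wide arrays, and ran from -0.24 to 0.17 on leaving out 1 array, and in LPS/LPS vs LPS it ran from -0.092 to 0.32. C1ra in LPS/LPS vs LPS was 0.061 within wide arrays and ran from -0.29 to 0.068, Thbd in LPS vs control was 0.17 within wide arrays and ran from -0.21 to 0.059, and Vtn there was 0.0068 within narrow arrays. Genes below the background reference have no value among the genes above it.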

Other observations

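Identical values recurred across arrays. Cfi held 4.07 on 3 arrays to every deposited decimal, Cd55 held 2.65 on 3, and C8b held 4.25 on 5. Of all 22180 genes, 50.6% had at least 1 such tie, 38.7% of genes at or above the background reference and 51.9% of genes below it. Cfb, C4b and Cd59a had 13 distinct values each.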
